A study of Mus musculus with 2 samples.

Results

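The genes described here encode the subunits of RNA polymerases I, II and III, their general transcription factors, the TBP-associated factors (TAFs) and Mediator. They were chosen by name, as the non-control probes whose gene name in the array files starts with Polr1, Polr2 or Polr3 and a subunit letter, Rpo1 or Rpo2, Gtf2, Gtf3, Taf and a digit, or Med and a digit. This rule found 153 probes of 83 genes, among 41174 probes and 19487 named genes. Of the 83 genes, 27 encode polymerase subunits: 3 of polymerase I alone, 7 of polymerase II alone, 10 of polymerase III alone and 7 shared between polymerases.

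RNA polymerase I transcribes the large ribosomal RNA precursor in the nucleolus, RNA polymerase II transcribes protein-coding genes, and RNA polymerase III makes transfer RNAs, the 5S ribosomal RNA and other short RNAs. Each enzyme has subunits of its own around a core partly shared with the others, and each is brought to its promoters by its own factors: SL1 for polymerase I, TFIIA to TFIIH with TFIID and Mediator for polymerase II, and TFIIIA, TFIIIB and TFIIIC for polymerase III. Granulocytes leave the cell cycle and condense their nuclei as they mature in the bone marrow, while monocytes keep a more open nucleus and can still become macrophages or dendritic cells.

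The study set granulocytes beside monocytes, both from bone marrow of male wild-type mice of the strain C57BL/6, with 1 array for each cell type. The labels do not state the age of the mice, how many were behind each sample or which surface markers the sort used. From each sample 0.5 µg of total RNA was amplified and labelled with Cy3, and the arrays shared a slide and a scan time. No difference below has a replicate check, so there is no test and no p-value, and having 1 array per group is what limits the precision.

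Levels are log2 processed signal minus the array's own 75th percentile (339.4 for granulocytes, 620.9 for monocytes), and differences are granulocyte minus monocyte, so a negative value is lower in granulocytes. A difference of 1 on this scale is 2-fold and a difference of 2 is 4-fold, the size at which a gene was counted. Signal was well above background for 26269 probes (63.8%) in granulocytes and 28055 (68.1%) in monocytes. Over the 15061 named genes above background on at least 1 array the median difference was 0.44, and it was -0.43 with no scaling, -0.14 when scaled to the spike-in controls and 0.20 after quantile normalization. Group medians below are therefore also given relative to the median of all genes.

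All 10 granulocyte markers were higher on the granulocyte array (median 2.76) and all 8 monocyte markers were higher on the monocyte array (median -7.05). Summed over the 10 granulocyte markers, signal was 4120 times the 75th percentile for granulocytes and still 1040 for monocytes. The 8 monocyte markers summed to 15 and 525. Probes of different genes are not comparable in level and the lists differ in size, so sums of different lists cannot be ranked. On the monocyte array the granulocyte markers were highest at S100a9 (8.7), S100a8 (7.58), Ltf (7.33), Camp (7.04) and Ngp (6.96). Mmp8 (3.14), Csf3r (2.87), Retnlg (1.15), Mmp9 (-1.45) and Cxcr2 (-2.81) were lower there, and which cells gave this signal was not tested. All 9 markers of dividing cells were lower in granulocytes, with differences from -3.54 to -1.31 and a summed signal of 62.2 against 337 times the 75th percentile. Mpo, Elane, Prtn3 and Ctsg, the granule protease and peroxidase genes of early precursors, were lower by -3.67 to -2.99, and Gfi1, the fifth precursor marker found, differed by 0.55. On the granulocyte array the summed signal was higher for 5 erythroid markers (218 against 63.6), and it was lower there for 6 markers of T and NK cells (1.8 against 16) and for 4 of plasmacytoid and dendritic cells (0.332 against 14.7). For 5 B cell markers it was 4.91 against 4.81. The part of these cells in the values of the polymerase genes was not tested, and in bulk RNA fewer cells of a type and less RNA per cell cannot be told apart.

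Of the 83 genes, 80 were above background on at least 1 array, and for 78 of them a difference was measured on both. On the 80, 3 (3.75%) were at least 4-fold higher in granulocytes, where 8.78% of all genes above background were, and 7 (8.75%) were at least 4-fold higher in monocytes, where 10.7% of all genes were. At 2-fold, 5 (6.25%) were higher in granulocytes beside 29.7% of all genes, and 23 (28.7%) were higher in monocytes beside 21.5%. Their median was -0.22, which was -0.66 relative to all genes, and 67 of the 80 lay below the median of all genes. The genes with the largest differences were mostly polymerase subunits: 6 of the 26 subunit genes above background were at least 4-fold lower in granulocytes and 1 was higher, beside 1 lower and 2 higher among the other 54.

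The direction of small differences depended on the scaling. Of the 80 genes, 22 changed sign under another scaling or background step, all of them with a difference of at most 0.81 in size, so these are given as values with no direction. Among the 26 genes above 0, 7 kept their direction: Polr1a, Polr2a, Taf4, Taf7, Taf12, Med31 and Med12l. Of these, Polr2a (0.01), Taf4 (0.04) and Taf12 (0.15) were close to 0 with no scaling, and Taf7 was at 0.59.

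**Figure D1:**
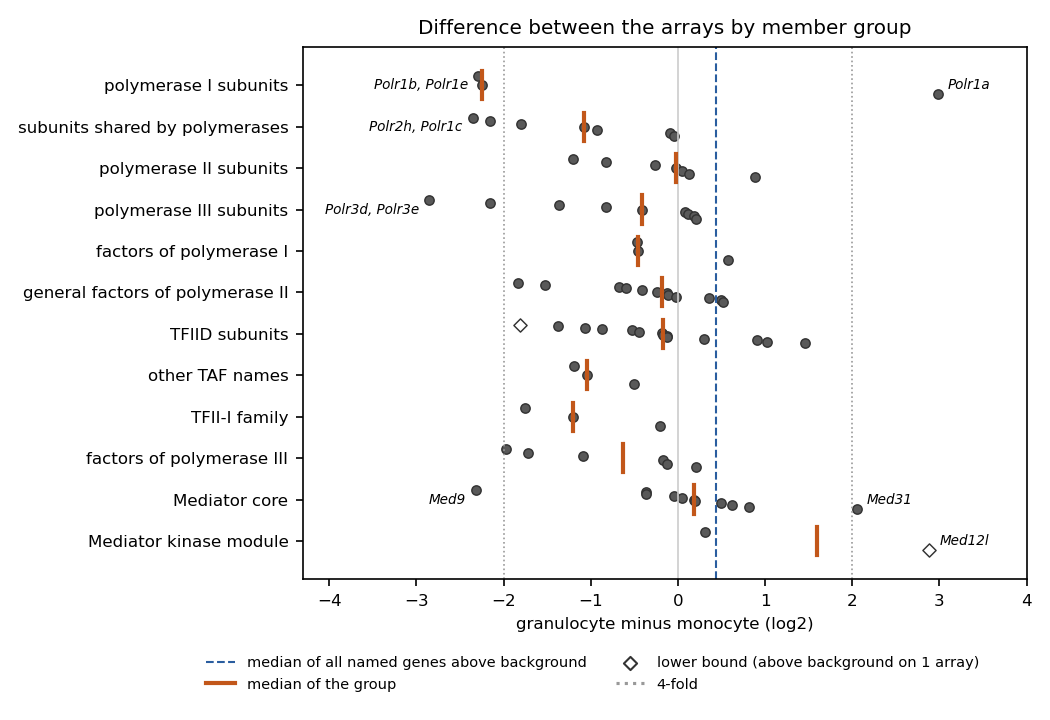
Difference between the arrays (granulocyte minus monocyte, log2) for each gene above background on at least 1 array, by group; each point is 1 gene, a diamond is a lower bound, the bar is the group's median, and the dashed line is the median of all genes, 0.44. Polr1b, Polr1e, Polr2h, Polr1c, Polr3d, Polr3e and Med9 lie beyond 4-fold on the monocyte side and Polr1a, Med31 and Med12l on the granulocyte side, and no gene of the polymerase II subunits does.

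The subunits of polymerase I split in direction. Polr1a, the largest, catalytic subunit (named Rpo1-4 in the files), had a level of 4.78 in granulocytes and 1.80 in monocytes, 7.87-fold higher in granulocytes. Polr1b, the second largest subunit (Rpo1-2), had -3.01 in granulocytes and -0.73 in monocytes, 4.88-fold higher in monocytes. Polr1e, which helps the enzyme to start and elongate, had -3.06 and -0.81, 4.76-fold higher in monocytes. The median of the 3 was -2.25, or -2.70 relative to all genes, and it stands on 2 genes against 1.

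Both probes of Polr1a gave this direction. They lie 24358 bases apart on the plus strand in the files' build mm8, at chr6:71884408-71884467 and chr6:71908766-71908825, and differed by 2.93 and 2.98. The first read 1.52 in granulocytes and -1.40 in monocytes. The nearest probe before the first, for an unnamed transcript on the plus strand, differed by 0.60 (-1.89 in granulocytes and -2.49 in monocytes). Whether it lies within Polr1a was not tested, as no gene annotation of mm8 was at hand. Farther in that direction the named genes were lower in granulocytes. Ptcd3, a mitochondrial translation gene on the minus strand, differed by -1.45, -1.22 and -1.07 at its 3 probes. Immt, a gene of the mitochondrial inner membrane, differed by -1.74 and -1.73. Polr1b was above background at 1 of its 2 probes, and Polr1e had 1 probe.

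The 7 subunits shared between polymerases were all below 0, with a median of -1.08 (-1.53 relative to all genes). Polr2h, a small core subunit of all 3 enzymes, had -2.48 in granulocytes and -0.14 in monocytes, 5.08-fold higher in monocytes. Polr1c (Rpo1-1), which nucleates the assembly of polymerases I and III together with Polr1d, had 1.28 and 3.45, 4.47-fold higher in monocytes. Its partner Polr1d (Rpo1-3) had 2.53 and 2.62, a difference of -0.09, and -0.52 at its other probe. The assembly pair was thus 4-fold apart at one member and close to equal at the other.

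The other subunits common to all 3 polymerases were spread between these. Polr2f had 0.75 in granulocytes and 2.55 in monocytes (-1.80, and -1.72 at its other probe), and Polr2e had 3.30 and 4.39 (-1.08, with 3 probes from -1.34 to -1.08). Polr2l had 2.82 and 3.76 (-0.93), while Polr2k had 2.51 and 2.56 (-0.05). Differences within the shared core therefore ran from near 0 to 5-fold although the subunits stand in the same enzymes.

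The 7 subunits of polymerase II alone had a median of -0.02 (-0.46 relative to all genes), and 0 of them reached 4-fold. Polr2a, the largest subunit, which carries the C-terminal repeat domain, had -0.74 in granulocytes and -1.62 in monocytes, 1.84-fold higher in granulocytes. Its probe was spotted 10 times, with a spot SD of 0.11 in granulocytes and 0.13 in monocytes. Polr2d, which forms the stalk with Polr2g, had 1.60 and 2.80, 2.30-fold higher in monocytes, whereas Polr2g had 5.15 and 5.03, a difference of 0.13.

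The rest of polymerase II differed little. Polr2i, a subunit linked to transcription fidelity, had 2.47 in granulocytes and 3.30 in monocytes (-0.83). Polr2b, the second largest subunit, had 2.68 and 2.94 (-0.26, and -0.25 at its other probe). The assembly pair Polr2c and Polr2j differed by 0.05 (3.17 and 3.12) and -0.02 (2.75 and 2.77). Both members of this pair were close to equal, unlike Polr1c and Polr1d.

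Polymerase III had a median of -0.41 over the 9 of its 10 own subunits above background (-0.85 relative to all genes), and all 9 lay below the median of all genes. The 2 subunits past 4-fold form a heterodimer with each other. Polr3d had -3.66 in granulocytes and -0.81 in monocytes, 7.19-fold higher in monocytes, and Polr3e had -2.47 and -0.31, 4.47-fold higher in monocytes, with -3.13 at its other probe. Polr3k, which acts in RNA cleavage and termination, had 0.41 and 1.77 (-1.36, with 3 probes from -1.36 to -1.05).

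The remaining subunits of polymerase III stayed within 2-fold at the probe used. Polr3a, the largest subunit, had -0.12 in granulocytes and 0.70 in monocytes (-0.82, and -1.11 at its other probe above background), and Polr3b, the second largest, had 1.39 and 1.18 (0.21, and -0.61 at its other probe). Of the trio that acts in initiation, Polr3c had 4.03 and 3.92 (0.12), Polr3f had -1.37 and -1.55 (0.18), and Polr3g had -2.27 and -1.87 (-0.41). Polr3gl, the paralog that can replace Polr3g, had 2.35 and 2.27 (0.08), so neither paralog reached 2-fold at the probe used. Polr3g differed by -0.6 at its other probe above background on both arrays. A further Polr3g probe, above background in monocytes alone, differed by -1.39 (-5.24 in granulocytes and -3.85 in monocytes).

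**Figure D2:**
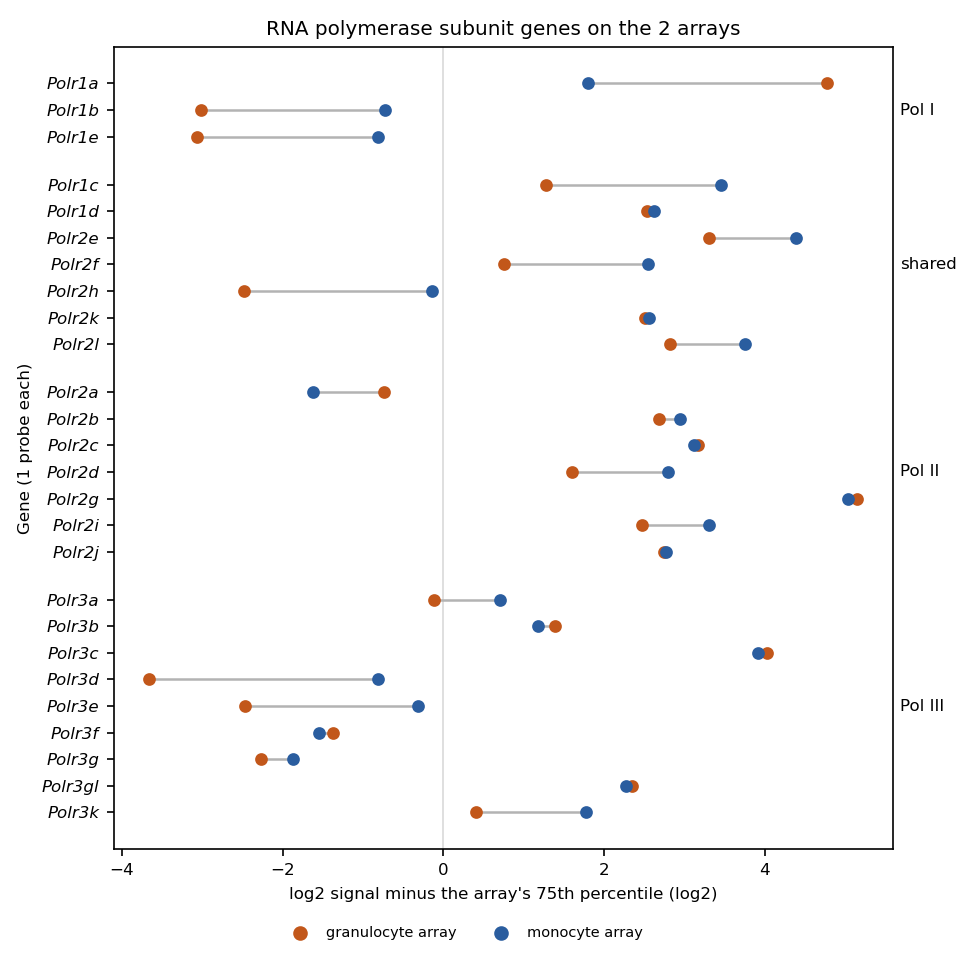
Level of the polymerase subunit genes above background on the granulocyte and the monocyte array, as log2 signal minus the array's 75th percentile, with a line joining the 2 values of a gene; the probes of different genes are not comparable in level. Polr1a runs from 1.80 in monocytes to 4.78 in granulocytes, opposite to Polr1b, Polr1e, Polr1c, Polr2h, Polr3d and Polr3e.

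Set side by side as whole enzymes, own and shared subunits together, polymerase I had a median of -1.44 over 10 genes, polymerase II -0.54 over 12 and polymerase III -0.88 over 16 above background. Below the median of all genes lay 9 of 10, 11 of 12 and 16 of 16. At least 4-fold lower in granulocytes were 4, 1 and 4 genes, beside 10.7% of all genes above background. At least 4-fold higher were 1, 0 and 0, beside 8.78% of all genes. The 3 enzymes share 5 of these genes and polymerases I and III share 2 more, so the counts are not independent. Polr1c, shared by polymerases I and III but not II, is 1 of the 4 genes counted in each of those enzymes. For the enzymes' own subunits relative to all genes, the gap between polymerase II (-0.46) and polymerase III (-0.85) closed to -0.64 and -0.66 after quantile normalization and to -0.60 and -0.62 under normexp. By the dimmest probe of a gene it widened to -0.47 and -1.57. With Twistnb, Cd3eap and Znrd1, subunits of polymerase I outside the naming rule, its median was -1.08 over 13 genes, and 1 of them, Polr1a, lay above 0.

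Of the 7 subunit and Mediator genes counted on the monocyte side, 5 had granulocyte levels of -2.47 or lower and lost the 4-fold call under normexp background correction, which adds an offset of 50 to the intensities. They were Polr3d (-1.53), Polr2h (-1.65), Polr3e (-1.46), Polr1e (-1.35) and Polr1b (-1.24), all still lower in granulocytes. Polr1c (-2.18) and Med9 (-2.01) kept the call, as did Polr1a (2.84) on the granulocyte side. Med31, at 2.05 just past 4-fold, lost the call under normexp (1.94), in the authors' table (1.87), after quantile normalization (1.68), with spike-in scaling (1.48) and with no scaling (1.18), and Med12l lost it under normexp (1.40). With no scaling the other 9 called genes stayed past 4-fold.

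**Figure D3:**
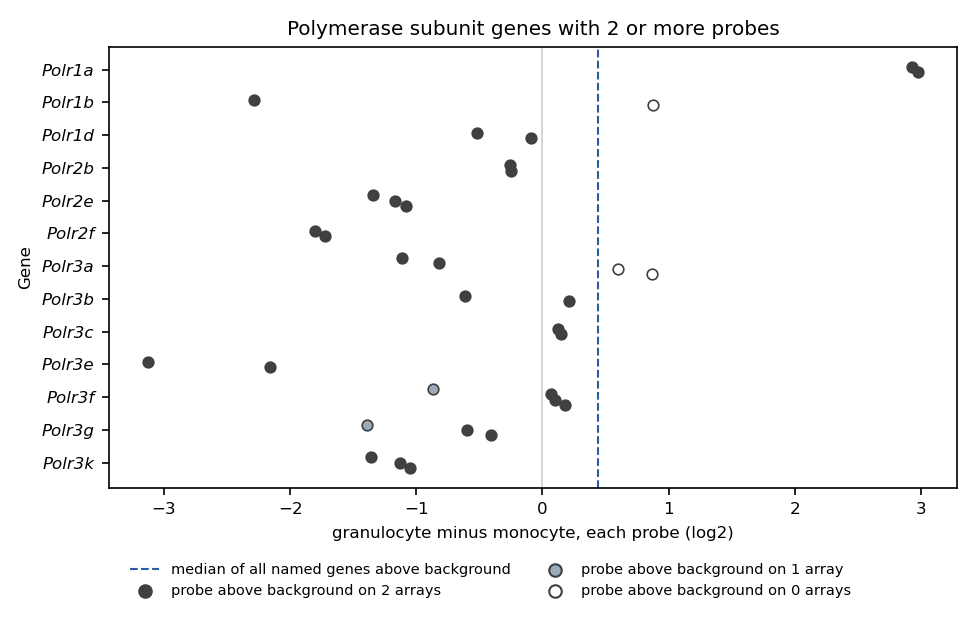
Difference between the arrays (granulocyte minus monocyte, log2) at every probe of the polymerase subunit genes with at least 2 probes; filled points are above background on both arrays, pale ones on 1 and open ones on none. Both probes of Polr1a lie near 3, and the filled probes of Polr3e, Polr2f, Polr2e and Polr3k all lie below -1.

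Among all members, 39 had 2 or more probes detected in both cell types. In 0 of them did probes differ by 2-fold in opposite directions, and in 8 the probes had opposite signs at smaller sizes. The widest range between probes was 1.16, at Gtf2h2. The median SD between probes of a gene was 0.23 over 5330 genes.

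The start regions of the polymerase genes past 4-fold are shown for Polr1a and for the 5 genes higher in monocytes that have an entry. The sequences are from RefSeq on GRCm38.p6, the 120 bases before the annotated start on the gene's strand, and capitals mark a GC box (GGGCGG or its reverse CCGCCC), an ETS motif (CCGGAAG or CTTCCGG) or a CCAAT box (CCAAT or ATTGG). They lie at chr6:71908933-71909052 (Polr1a, plus strand), chr2:129100876-129100995 (Polr1b, plus), chr4:45018489-45018608 (Polr1e, plus), chr17:46248046-46248165 (Polr1c, minus), chr16:20717706-20717825 (Polr2h, plus, with 2 starts listed) and chr7:120917658-120917777 (Polr3e, plus). Polr3d has no entry in the table.
Polr1a: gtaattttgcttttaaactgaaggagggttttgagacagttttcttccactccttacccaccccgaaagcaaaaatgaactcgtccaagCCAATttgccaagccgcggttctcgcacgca
Polr1b: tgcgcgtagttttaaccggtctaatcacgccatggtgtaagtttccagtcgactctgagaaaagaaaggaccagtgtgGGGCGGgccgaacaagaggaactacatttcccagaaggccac
Polr1e: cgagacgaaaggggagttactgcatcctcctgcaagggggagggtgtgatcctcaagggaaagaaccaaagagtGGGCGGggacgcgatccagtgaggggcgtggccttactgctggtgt
Polr1c: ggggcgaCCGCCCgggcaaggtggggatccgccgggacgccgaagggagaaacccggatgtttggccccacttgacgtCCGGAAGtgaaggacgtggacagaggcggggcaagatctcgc
Polr2h: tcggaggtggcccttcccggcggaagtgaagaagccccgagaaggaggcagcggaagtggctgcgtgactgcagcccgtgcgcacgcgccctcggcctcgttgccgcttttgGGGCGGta
Polr3e: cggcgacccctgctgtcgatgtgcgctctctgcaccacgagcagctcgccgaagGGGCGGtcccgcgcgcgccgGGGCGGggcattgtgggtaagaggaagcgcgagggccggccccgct

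In the shown 120 bases, the 5 genes higher in monocytes each hold a GC box and Polr1a holds a CCAAT box and no GC box. In such 120-base windows a GC box stood in 10 of 21 polymerase subunit genes with an entry (47.6%), 45.8% of the members and 26.9% of all genes, and a CCAAT box in 23.8%, 23.6% and 22.1%. In windows of 300 bases (250 before and 50 after the start, both strands, the first listed start of a gene), a GC box stood in 44 of 72 members with an entry (61.1%), beside 35.9% of 27025 genes. By direction it stood in 6 of 6 members past 4-fold in monocytes and in 1 of 3 past 4-fold in granulocytes, and it stood in 13 of the 21 polymerase subunit genes. The ETS motif stood in 37.5% of the members and 9.1% of all genes, the E-box CACGTG in 20.8% and 7.2%, the NRF1-type motif GCATGCGC in 9.7% and 2.8%, and the YY1 motif AAGATGGCG in 6.9% and 1.5%. TATAAA (13.9% and 14.2%) and CCAAT (33.3% and 37.9%) were about as frequent as elsewhere. A match is a description of these letters only. The genes past 4-fold were picked by their differences, and a link between a motif and the direction was not tested.

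The 3 SL1 genes found by the naming rule lay within 2-fold. Of SL1, the TBP complex that recruits the enzyme to ribosomal DNA, Taf1a had -1.78 in granulocytes and -1.31 in monocytes (-0.47, and -0.84 at its other probe above background), Taf1b had -0.65 and -0.20 (-0.46) and Taf1c had 1.0 and 0.43 (0.57). Their median was -0.46 (-0.90 relative to all genes).

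Of the general factors of polymerase II, 12 of 13 were above background, with a median of -0.18 (-0.62 relative to all genes) and 0 past 4-fold. The largest difference was in Gtf2f2, the smaller subunit of TFIIF, which travels with the polymerase: -0.26 in granulocytes and 1.58 in monocytes, 3.56-fold higher in monocytes, and -1.85 at its other probe. Its partner Gtf2f1 had 4.42 and 5.02 (-0.60). Gtf2h4, a subunit of TFIIH, which opens the DNA and takes part in repair, had 0.32 and 1.84, 2.86-fold higher in monocytes.

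The other general factors were within 2-fold at the probe used. In TFIIH, Gtf2h2 differed by -0.67 (and by -1.83 at its other probe), Gtf2h5 by -0.41, Gtf2h3 by -0.12 and Gtf2h1 by -0.02. In TFIIE, which brings in TFIIH, Gtf2e1 differed by -0.24 (0.53 at its other probe) and Gtf2e2 by -0.11. TFIIB and TFIIA, which bind TBP at the promoter, had Gtf2b at 0.52, Gtf2a1 at 0.50 (1.09 at its other probe) and Gtf2a2 at 0.36, and Gtf2a1l, the germ cell paralog, was not above background.

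TFIID, the complex of TBP and TAFs that recognises core promoters, had 14 of 15 genes above background, a median of -0.18 (-0.62 relative to all genes) and 0 past 4-fold. Taf7, which binds and restrains Taf1, had 1.16 in granulocytes and -0.30 in monocytes, 2.75-fold higher in granulocytes, with 3 probes from 0.64 to 1.46. Taf12 had 3.57 and 2.55, 2.02-fold higher in granulocytes, and its histone-fold partner Taf4 had 3.33 and 2.42 (0.91). Taf4 and Taf12 thus lay on the same side, against the group's median.

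On the other side, Taf3, which reads a histone mark of active promoters, had -2.54 in granulocytes and -1.17 in monocytes, 2.58-fold higher in monocytes. Its smallest difference over the scalings and background steps was -0.7, less than 2-fold. Taf6 had -2.76 and -1.69 (-1.07), and its histone-fold partner Taf9 had 1.98 and 2.86 (-0.87). Taf9b, the paralog of Taf9, was above background in monocytes alone (-3.35, beside -7.29 in granulocytes) and was at least 3.51-fold higher there, a bound of -1.81 on the log2 scale that shrank to -0.20 under normexp. Taf6 was at -0.39 and Taf9 at -0.91 under normexp, so both stayed below 0.

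The remaining TFIID genes were Taf4b (-0.53), Taf5 (-0.45), Taf1 (-0.18, with 6 probes from -0.43 to 0.66), Taf2 (-0.17), Taf11 (-0.13), Taf10 (-0.12) and Taf13 (0.30), and Taf7l was not above background. The paralogs of the SAGA coactivator, Taf5l (1.03 in granulocytes and 2.22 in monocytes, -1.19) and Taf6l (-1.71 and -1.21, -0.50), had the same sign as Taf5 and Taf6. Taf15, an RNA-binding protein of the FET family that carries a TAF name, had 0.74 and 1.79 (-1.04).

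The TFII-I family, whose founding member answers to signalling as well as binding initiator elements, was below 0 at all 3 genes. Gtf2i had 0.16 in granulocytes and 1.90 in monocytes, 3.36-fold higher in monocytes, and -1.60 at its other probe. Gtf2ird2 had -0.82 and 0.38 (-1.20), and its relative Gtf2ird1 had 0.23 and 0.43 (-0.20).

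The factors of polymerase III had a median of -0.63 (-1.08 relative to all genes), and all 6 lay below the median of all genes. Gtf3a, which is TFIIIA and binds the 5S ribosomal RNA gene, had 0.54 in granulocytes and 2.52 in monocytes, 3.93-fold higher in monocytes. In TFIIIC, which binds inside transfer RNA genes, Gtf3c5 had 0.41 and 2.13, 3.30-fold higher in monocytes, and Gtf3c3 had -1.71 and -0.62 (-1.09). Gtf3c1 (-0.17), Gtf3c4 (-0.13) and Gtf3c2 (0.21) differed little, so the subunits of this complex too were spread from near 0 to over 3-fold.

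Mediator, which links transcription factors to polymerase II, was close to the rest of the arrays: its 11 core genes had a median of 0.19, or -0.25 relative to all genes, and the unadjusted median turned negative with no scaling (-0.68). The 2 genes past 4-fold belong to the same middle module and went in opposite directions. Med31 had 3.77 in granulocytes and 1.72 in monocytes, 4.15-fold higher in granulocytes. Med9 had -1.09 and 1.23, 4.96-fold higher in monocytes. Each has 1 probe.

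Med31 is on chromosome 11, and in mm8 its probe is at chr11:72028008-72028067 on the minus strand. The probe of Txndc17, a thioredoxin-like gene on the plus strand beside it, differed by 1.35. Next in size were Med11 (3.04 in granulocytes and 2.23 in monocytes, 0.81) and Med10 (4.94 and 4.32, 0.62). The others were Med8 (0.50), Med25 (0.20), Med4 (0.19), Med28 (0.05), Med18 (-0.04, and -0.75 at its other probe), Med6 (-0.37) and Med19 (-0.37).

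Of the kinase module, which binds Mediator reversibly, Med12 had 2.83 in granulocytes and 2.52 in monocytes (0.31). Its paralog Med12l was above background in granulocytes alone, at 1 of 4 probes (-3.16, beside -7.96 in monocytes), and was at least 7.35-fold higher there. This bound was 1.40 on the log2 scale under normexp. The module's median of 1.59 (1.15 relative to all genes) rests on these 2 genes. Without the bound it was 0.31, or -0.16 relative to all genes.

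The files hold 20 more genes of these complexes under older names that the rule does not match, which were looked up after the values had been seen. The 15 Mediator core genes among them ran from -1.0 (Med27) to 1.05 (Med30) with a median of 0.20 and 0 past 4-fold. Of the kinase module, Med13l had 4.01 in granulocytes and 2.36 in monocytes, 3.12-fold higher in granulocytes, and Med13 had 0.26 and -1.14, 2.63-fold higher. Over the scalings and background steps the lowest log2 differences were 0.77 for Med13l and 0.52 for Med13. Taf8 differed by 1.14 (at the lowest 0.27 over the scalings), Gtf3c6 by -0.37 and Taf1d by -1.78. With these genes the counts past 4-fold stayed at 3 and 7, now of 100 genes above background.

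**Figure D4:**
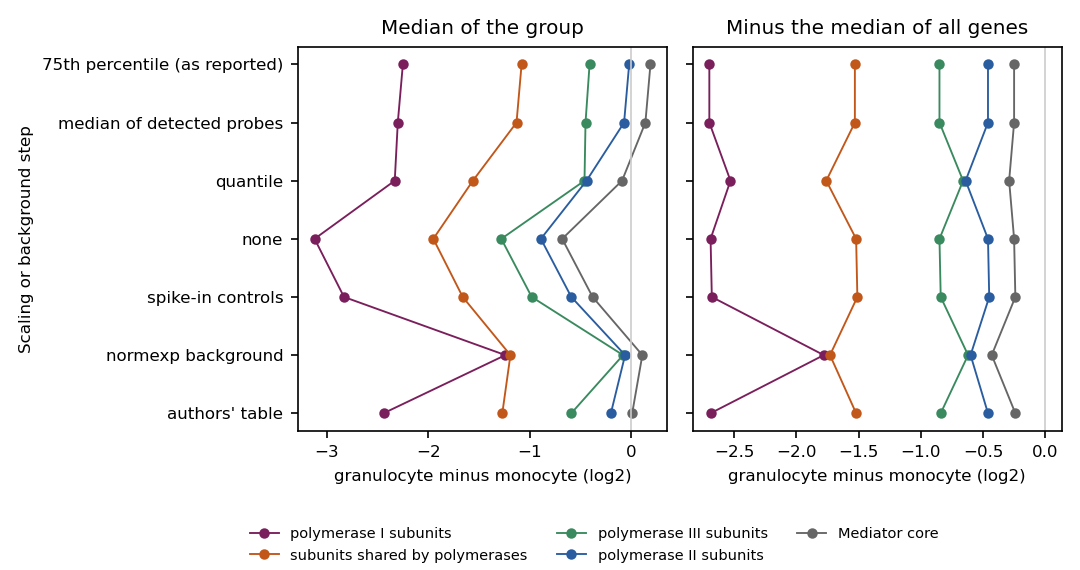
Median difference (granulocyte minus monocyte, log2) of 5 groups under each scaling or background step, as such on the left and minus the median of all genes on the right. Polymerase I and the shared subunits stay below 0 throughout, the Mediator core crosses 0 on the left, and polymerase I moves from -2.70 to -1.78 on the right under normexp.

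Genes that act with these complexes were taken from a list of 61 in 7 classes, all of them above background, with a median of 0.13 (-0.31 relative to all genes). Past 4-fold, 2 (3.28%) were higher in granulocytes and 8 (13.1%) in monocytes, beside 8.78% and 10.7% of all genes. Past 2-fold these counts were 10 (16.4%) and 17 (27.9%), beside 29.7% and 21.5%. The polymerase I class of 7 genes had a median of -0.80. Cd3eap, the subunit that pairs with Polr1e, had -3.09 in granulocytes and -0.76 in monocytes, 5.05-fold higher in monocytes, close to Polr1e in difference. Rrn3, which makes polymerase I competent to start, had -1.32 and 0.88, 4.60-fold higher in monocytes, and Taf1d, an SL1 subunit, had -0.14 and 1.64, 3.44-fold higher. Znrd1 (-0.80) and Twistnb (-0.53) were smaller differences, while Ubtf, the factor that marks active ribosomal genes (3.69 and 3.30, 0.40), and Ttf1, the terminator protein (-0.83 and -1.69, 0.85), lay above 0 and changed sign with the scaling.

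The polymerase assembly class had the lowest median of the 7, -1.98 (-2.43 relative to all genes), with all 6 genes below 0. Gpn1, a GTPase that takes part in the nuclear import of polymerase II, had -1.43 in granulocytes and 1.41 in monocytes, 7.18-fold higher in monocytes. Rpap3, a co-chaperone of polymerase assembly, had -2.22 and 0.29, 5.72-fold higher, and Rpap1 had -1.88 and 0.13, 4.01-fold higher. The mitochondrial class was low too (median -1.84), with Tfb1m 5.20-fold, the mitochondrial polymerase Polrmt 4.48-fold and Tfb2m 2.85-fold higher in monocytes, and Tfam, which packs mitochondrial DNA, at 0.66. Over the scalings and background steps, the smallest differences of the partners past 4-fold in monocytes were -1.29 for Cd3eap, -1.52 for Rpap1, -1.63 for Polrmt, -1.70 for Rpap3, -1.84 for Tfb1m and -1.85 for Rrn3, while Gpn1 (-2.45) and Snapc4 (-2.22) stayed past that size.

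The elongation class of 20 genes had a median of 0.49, which was 0.04 relative to all genes and turned to -0.38 with no scaling, and it held both partners past 4-fold on the granulocyte side. Ell2, a subunit of the super elongation complex, had 2.0 in granulocytes and -1.43 in monocytes, 10.8-fold higher in granulocytes, and its relative Ell had 4.45 and 2.37, 4.23-fold higher (1.21 on the log2 scale with no scaling). Hexim1, an inhibitor of the elongation kinase P-TEFb, had 4.85 and 3.25, 3.03-fold higher (at the lowest 0.73 over the scalings). The 2 subunits of the histone chaperone FACT lay on the other side, Ssrp1 at -1.84 (3.48 and 5.32) and Supt16 at -1.32. Of the pausing factor NELF, Nelfe was at -0.24, Nelfcd at -0.15, Nelfa at 0.34 and Nelfb at 1.08. Over the scalings and background steps Nelfb was 0.21 at the lowest, and Nelfa changed sign.

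Of 8 further polymerase II genes, Polr2m (-1.67), and Mnat1 (-1.64) and Ercc2 (-1.29) of TFIIH, were lower in granulocytes, and the TBP relative Tbpl1 (1.06) was higher. Ercc2 was dim (-4.02 in granulocytes and -2.72 in monocytes), and its difference shrank to -0.14 at the smallest over the scalings and background steps. Tbp itself (0.42) and the TFIIH helicase Ercc3 (0.35) changed sign with the scaling. Among 13 polymerase III genes, Snapc4, of the complex that binds small nuclear RNA promoters, had 0.13 in granulocytes and 2.46 in monocytes, 5.03-fold higher in monocytes. Snapc5 (1.32), Zfp143 (1.25) and Maf1 (1.08), the repressor of polymerase III, were over 2-fold higher in granulocytes. These were 3 of the 13, beside 29.7% of all genes. Over the scalings and background steps the lowest values were 0.45 for Snapc5, 0.38 for Zfp143, 0.21 for Maf1 and 0.19 for Tbpl1. The kinases and cyclin that bind Med12 and Med13 were Cdk8 (-0.56), Cdk19 (0.49) and Ccnc (0.45).

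**Figure D5:**
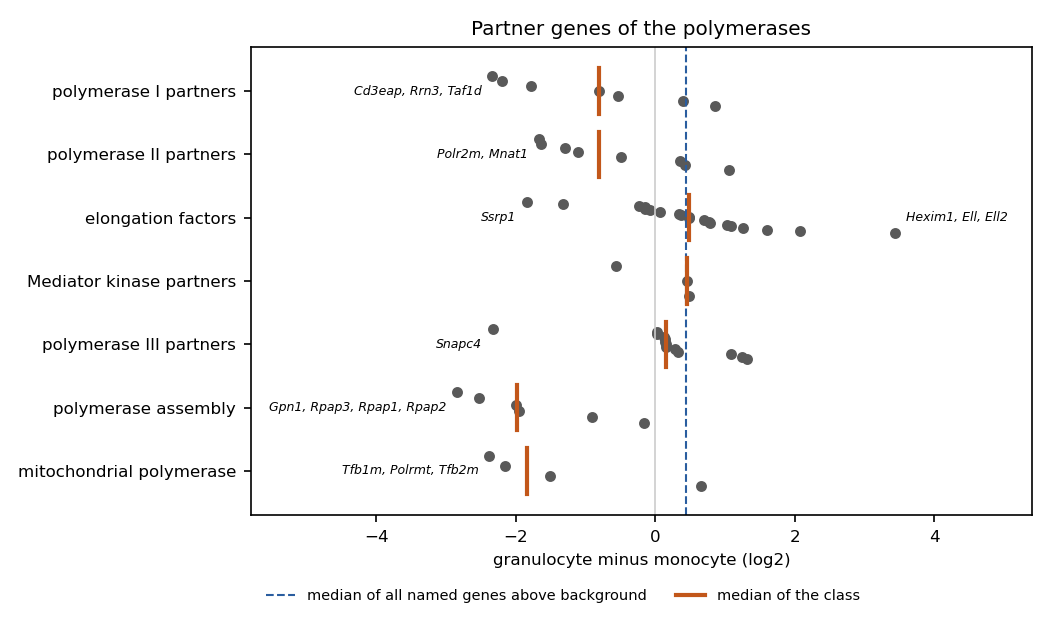
Difference between the arrays (granulocyte minus monocyte, log2) of 61 partner genes by class; each point is 1 gene, the bar is the class median, names are those of genes beyond 1.5 in size in their order from left to right, and the dashed line is the median of all genes, 0.44. Polymerase assembly (median -1.98) and the mitochondrial polymerase (-1.84) lie lowest, and Ell2 at 3.44 is the highest gene.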

How the data were processed

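Each deposited array file held 45018 spots read by Agilent Feature Extraction 10.5.1.1, per the file headers, as a linear intensity with background subtracted by the scanner software. The log2 values that the authors deposited were set against these intensities: they differed from log2 of the processed signal by a constant of -0.236 (granulocytes) or -0.924 (monocytes), within 0.01 for 100.0% of probes with 1 spot. How the constants were set is not stated. Control spots and outlier spots (143 and 103) were left out, and 0 gene spots were saturated. From these intensities, log2 values minus the 75th percentile were computed with Python 3.11.15 and spots of a probe were averaged. Probes were named through RefSeq accessions of GRCm38.p6, then by symbol. A gene was represented by its probe above background on most arrays, then the brightest. 1 probe filed as Taf9 has an accession of Ak6 and was left out of Taf9. For a gene above background on 1 array, the bound, written "at least", set the bright value against a floor, the lowest signal well above background on the dim array (-5.16 for granulocytes, -6.04 for monocytes), or against the dim probe itself where that was higher.

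All polymerase subunits above background were named, then the 4 largest differences of each other group, members past 4-fold or 2-fold against their group, paralog pairs, and the 3 largest partners each way per class. Genes named beyond this rule were chosen after their values were seen. The members and lists were chosen with earlier results of these data known. The steps were tested on simulated data. Alternatives were other scalings, normexp with limma 3.58.1, the authors' table, filters on dim probes, rules for several probes and other fold sizes. A gene that the naming rule selects is not reported here, though counts include it.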

Additional observations from a re-analysis of the deposited data

How the results depend on the processing

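With 1 array per cell type no replicate could be left out. No paired analysis was possible because each group holds 1 sample and no test was made. Medians here are relative to all genes, and over the 10 member groups tried under every alternative all but 13 values moved by less than the median SD between probes, 0.23. Median, spike-in and no scaling and the authors' table differ from the reported scaling by a constant per array. Such a constant cancels in these medians, so values under those settings could hardly move and are no check. The 13 values that moved were as follows. Under normexp, polymerase I was -1.78, polymerase III -0.62 and the Mediator kinase module 0.29. After quantile normalization the shared subunits were -1.76 and the polymerase I factors -0.64. With every gene as measured, polymerase III was -1.23, the general polymerase II factors -0.85 and the kinase module 1.94. With genes above background on both arrays alone the kinase module was -0.16. Polymerase III was -1.20 by the mean of a gene's probes and -1.57 by its dimmest probe, which gave -1.79 for the shared subunits. Adding the genes under older names, chosen after seeing the data, gave -0.81 for the polymerase III factors. Partner classes were tried under the scalings, normexp and the authors' table, and under normexp the polymerase II partners moved from -1.25 to -0.80, polymerase assembly from -2.43 to -1.99 and the mitochondrial class from -2.28 to -1.89. Members at least 4-fold higher in granulocytes, 3 as reported, were 1 under normexp, 5 at 2-fold and 0 at 8-fold. Those higher in monocytes, 7 as reported, were 19 with no scaling, 14 with spike-in scaling, 2 under normexp, 23 at 2-fold and 0 at 8-fold. Beside all genes, the share of members 4-fold higher in monocytes was below as reported (8.75% against 10.7%) and under normexp (2.50% against 5.93%), and above with no scaling (23.8% against 19.4%) and with spike-in scaling (17.5% against 16.1%). The share of 4-fold calls that were higher in granulocytes was 45% over all genes and 30.0% over members, against 16.1% and 9.5% with no scaling, 23.2% and 12.5% with spike-in scaling and 35.6% and 16.7% after quantile normalization. It was 37.2% and 18.2% in the authors' table and 50.2% and 33.3% under normexp. For the 10 genes past 4-fold, 0 of 99 values under the alternatives reversed. A reversal was unlikely beforehand, as these genes were picked for differences of at least 4-fold. Where a gene had 1 usable probe, the rules for several probes gave its value again. Signal near background limits Polr1b, Polr1e, Polr3d, Polr2h, Polr3e, Med12l and Taf9b, and partners such as Ercc2 and Cd3eap.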
